A study of Ambystoma mexicanum with 7 samples.

Results

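Blood and immune cells carry a small set of microRNAs (miRNAs) that are scarce in other tissues, and 9 names of that set were followed here in the regenerating axolotl limb. They were miR-451 and miR-144 (erythroid), miR-223 (myeloid), miR-142-3p and miR-142-5p (all blood lineages), miR-150 (lymphoid), and miR-155, miR-146a and miR-146b (immune activation). A probe was taken where a vertebrate entry of its name equalled 1 of these 9 names after the species prefix was dropped. This gave 23 of 2021 named probes on the Exiqon array and 41 of 1974 reporters on the LC Sciences array. The regenerating tissue was the mid-bud blastema of the hindlimb at 17 days post amputation (dpa), the mound of cells that regrows the limb. The comparison tissue was non-regenerating stump, cut from the same 3 white axolotls (Ambystoma mexicanum; animals 368, 369 and 378) at amputation on day 0 and holding skin, bone, muscle and nerve. The sources name no genetic change in either group, all animals were anesthetized with MS222 for surgery, and each of the 6 samples was total RNA of 1 tissue of 1 animal. Exiqon hybridized each sample in the Hy3 dye against a pool of all samples in Hy5, and LC Sciences hybridized the blastema and stump of an animal together, the dyes being exchanged between animal 368 (blastema Cy3) and the other two (blastema Cy5). Both arrays carried probes designed to other species, so every value is a cross-species hybridization. Whole tissue was measured, and fewer cells of a type and less RNA per cell cannot be told apart.

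The members differ in the cells that make them. In mammals and fish miR-451 and miR-144 are cut from 1 shared transcript that the factor GATA1 drives in maturing red cells, and miR-451 is unusual in being matured by Argonaute2 without Dicer. The miRNA miR-223 accumulates in neutrophils and other myeloid cells, the strands of the miR-142 hairpin are present in nearly all white cells, and miR-150 is abundant in mature lymphocytes, where it restrains the factor Myb. Activated macrophages and lymphocytes induce miR-155 from its host transcript BIC, and the miR-146 family is induced by NF-kB and restrains the adaptors of Toll-like receptor signalling.

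The target sequences of the LC Sciences reporters, written in the array file as the mature miRNA each reporter was designed to bind, are shown because reporters of 1 name differ in their targets. The capitals mark the seed (bases 2 to 8), the stretch that chiefly selects messenger RNA targets. The human targets, with the Xenopus target for miR-146b, were as follows.
hsa-miR-451: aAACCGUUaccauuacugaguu
hsa-miR-144: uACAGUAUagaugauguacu
hsa-miR-223: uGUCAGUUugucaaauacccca
hsa-miR-142-3p: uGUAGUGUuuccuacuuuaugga
hsa-miR-142-5p: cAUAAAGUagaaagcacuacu
hsa-miR-150: uCUCCCAAcccuuguaccagug
hsa-miR-155: uUAAUGCUaaucgugauaggggu
hsa-miR-146a: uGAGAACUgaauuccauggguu
xtr-miR-146b: uGAGAACUgaauuccauggacu
The targets of miR-146a and miR-146b share the seed GAGAACU, which 9 reporters of the array carry, and the other members have seeds of their own. The 41 member reporters held only 25 distinct targets. Thus hsa, C_hsa, dre and xtr-miR-451 were designed to 1 identical target of 22 bases, and their readings are repeats of 1 measurement rather than independent support.

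Reporters of 1 name could differ by a single base. The chicken miR-451 target has 1 extra base at its 3′ end, the opossum target (mdo) differs from the human one by A19U, and the zebrafish miR-150 target (dre) differs by C9U (human base, position from 1 at the 5′ end, base of the other species).
gga-miR-451: aAACCGUUaccauuacugaguuu
mdo-miR-451: aAACCGUUaccauuacuguguu
dre-miR-150: uCUCCCAAuccuuguaccagug
xtr-miR-150: uCUCCCAAcccuuguaccagag
The 4 reporters of the 22-base miR-451 target read 595 to 666 in the blastema of animal 368, 2149 to 2620 in that of animal 369 and 2142 to 2794 in that of animal 378. Their stump signals were 218 to 267, 371 to 426 and 388 to 478 in the same order of animals. Both reporters of the opossum target stayed between 3 and 22 in all 6 samples, under the floor of 32 used here as the limit of reading. The opossum probe on the Exiqon array (29493) also stayed dim, at a Hy3 signal of 94, 95 and 100 in blastemas and 102, 94 and 96 in stumps, below the brightest negative control on every array. The Xenopus reporter xtr-miR-150, which differs from the human target by U21A, read 190, 196 and 293 in blastemas and 310, 542 and 356 in stumps. The zebrafish miR-150 reporter read 15, 23 and 27 in blastemas and 75, 40 and 42 in stumps.

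**Figure D1:**
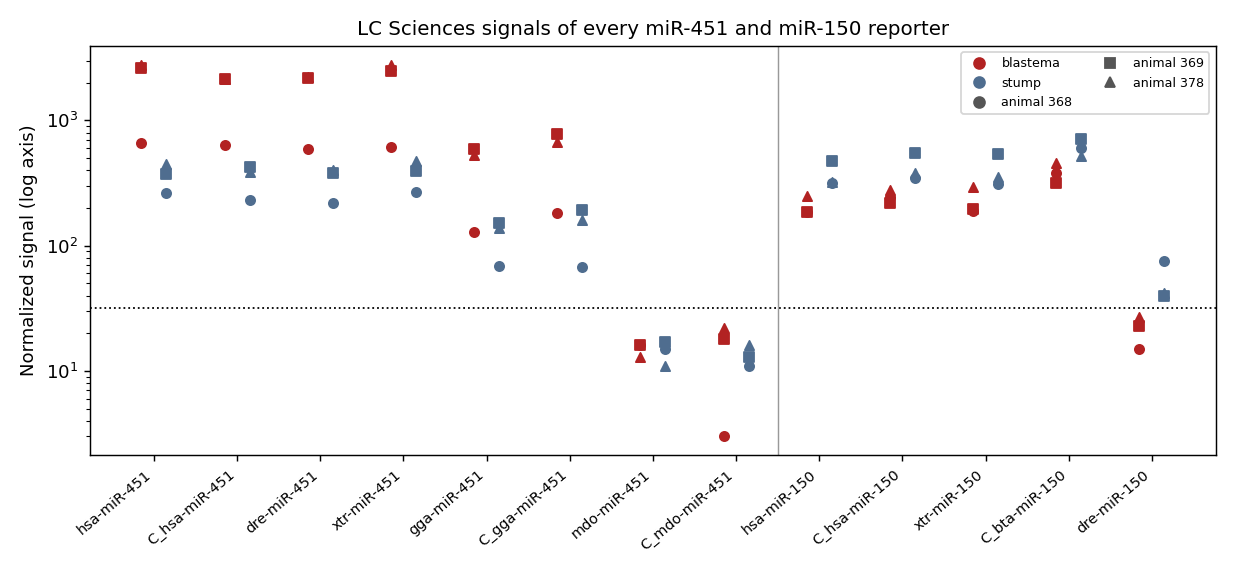
Normalized LC Sciences signals (log axis) of every miR-451 and miR-150 reporter in the blastemas (red) and stumps (blue) of the 3 animals, with the floor of 32 as a dotted line. The opossum miR-451 reporters lie between 3 and 22 in all 6 samples, and the blastema lies above the stump of the same animal in every other miR-451 reporter and below it in every miR-150 reporter.

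Depth and tissue content bear on all results. Per array, 950 to 1078 named Exiqon probes exceeded the brightest negative control, and 489 to 576 LC Sciences reporters per sample reached 32. Spots with a poor or manual flag numbered 1597 and 1221 on the blastema and stump arrays of animal 368, and 188 to 215 on the others. Muscle miRNAs (miR-1, miR-133, miR-206 and miR-499) were lower in the blastema in 12 of 12 tested Exiqon probes, with a median difference of -2.51 on the log2 scale, and in 13 of 31 LC Sciences reporters, with a median of -1.82. Endothelial miR-126 was lower in 3 of 3 probes (median -1.05) and 4 of 4 reporters (median -1.54). Epidermal miR-203 and miR-205 were lower in 2 of 3 probes (median -0.41), both of miR-203, and higher in 3 of 7 reporters (median 0.28), all of miR-205. For cartilage and connective tissue, miR-140, miR-199a and miR-214 were lower in 6 of 6 probes (median -0.86). None of 7 tested reporters was called (median 0.29), and these were of miR-199a and miR-214, with no tested reporter of miR-140. The part of these shifts in tissue content in the blood and immune results was not tested.

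The question was whether each lineage's miRNAs stood higher or lower in the regenerating tissue. Differences are log2 values, blastema minus stump, from limma fits across all tested probes, with Benjamini-Hochberg adjusted p-values and a threshold of 0.05. On the LC Sciences array 21 of the 41 reporters could be tested, covering 5 of the 9 names and 11 of the 25 targets. Of these 21 reporters 11 (52.4%) were called higher in the blastema, where 25.8% of the 500 tested reporters were, and 3 (14.3%) were called lower, where 22.4% of all were. The 11 calls rest on 5 targets, of miR-451, miR-223 and miR-155, and the 3 lower calls on 2 targets, of miR-150 and miR-146b. Of the 21 tested reporters 18 reached the floor in both groups, dre-miR-155 did so in the blastemas alone, and dre-miR-150 and xtr-miR-146b in the stumps alone; of these last 3, xtr-miR-146b is among the lower calls. On the Exiqon array all 23 probes were tested. Here 2 (8.70%) were called higher, against 9.16% of all 2008 tested probes, and 5 (21.7%) were called lower, against 11.2%. The share called higher was thus close to that of the whole Exiqon array. The 5 lower calls were 3 probes of miR-142-5p and 1 each of miR-146a and miR-146b. The 3 miR-142-5p probes share species entries, so they are not independent support. A stricter filter kept only probes above every negative control on all 3 arrays of a group. Under it 228 of 972 probes were called higher and 230 lower. Member probes 9466, 17409, 17716, 17723 and 29493 were left out by it. Of the remaining member probes 3 were called higher and 5 lower. Among these 5, miR-146a probe 10952 passed this filter through its stump signals alone. Both background shares were thus larger among the brighter probes than among all 2008. The median difference of the member probes was 1.59 on LC Sciences (0.01 over all reporters) and -0.15 on Exiqon (-0.00054 over all probes). All differences are relative to the bulk of the probes. The LC Sciences spike-in controls read 7.5-fold higher in blastemas. Scaling to them moved the median of all reporters to -2.90. It also turned the 15 differences of miR-451, miR-223 and miR-155 negative, each still above that median. The 10 Exiqon spike-in controls, under loess on all probes, were also higher in blastemas, by a median of 0.71 (log2 ratio).

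**Figure D2:**
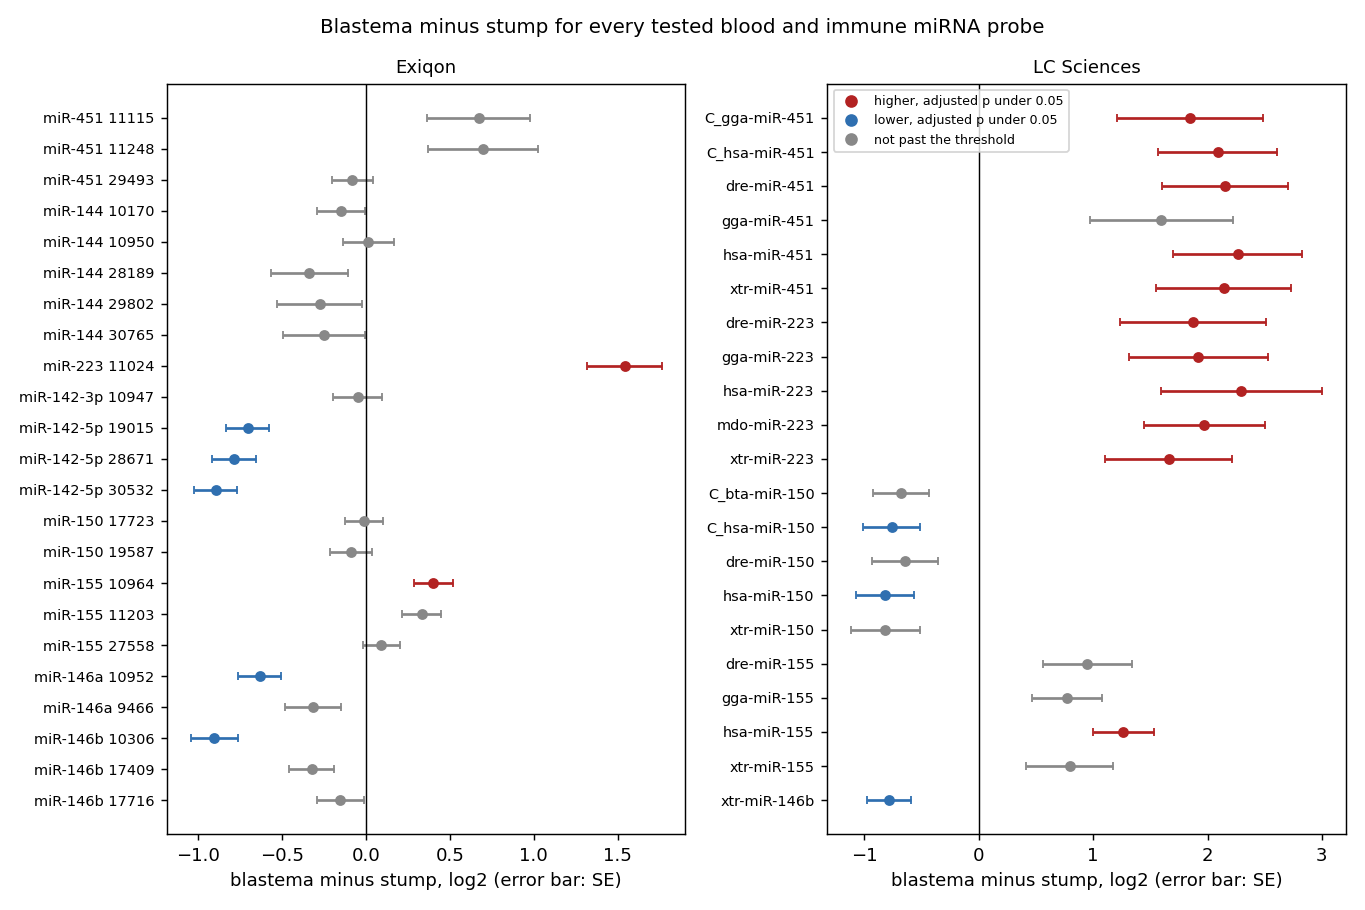
Blastema minus stump difference (log2, points) with its standard error (bars) for each tested member probe on the Exiqon (left) and LC Sciences (right) arrays, 3 samples per group. On LC Sciences the miR-451, miR-223 and miR-155 reporters lie above 0 and the miR-150 and miR-146b reporters below 0 (all lie below 0 when scaled to the spike-in controls), while on Exiqon miR-223 stands highest at 1.54 and miR-146b lowest at -0.90.

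The erythroid miR-451 was higher in the blastema on the LC Sciences array, relative to the median reporter after the company's normalization. The human reporter read 666, 2620 and 2781 in the blastemas of animals 368, 369 and 378, against 264, 371 and 447 in their stumps. Every blastema lay above every stump, and the blastema of animal 368 lay far below the other blastemas. The fitted difference was 2.26 ± 0.56 (SE), a 4.80-fold higher signal in the blastema, with an adjusted p of 0.0154. Within animals the blastema was 2.52-fold higher in animal 368, 7.06-fold in animal 369 and 6.22-fold in animal 378. The other 3 reporters of this target gave differences of 2.09 to 2.15, all past the threshold. For the chicken target, gga-miR-451 read 128, 586 and 531 in blastemas and 69, 151 and 139 in stumps. Its difference of 1.59 did not pass (adjusted p = 0.0712), while C_gga-miR-451, of the same target, did (1.85, adjusted p = 0.0483). With the animal as a replicate block gga-miR-451 passed as well (adjusted p = 0.0127). The call of the human reporter was lost without animal 369 (adjusted p = 0.158) or animal 378 (adjusted p = 0.0941), when the difference was 1.99 and 2.08.

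On Exiqon the miR-451 difference was smaller and depended on the fit. Probe 11248, which serves the human and 6 other vertebrate sequences, had log2 ratios to the common pool of -0.55, 0.89 and 0.62 in blastemas and -0.75, -0.14 and -0.25 in stumps. The blastema of animal 368 lay among the stumps, so the groups overlapped, though each blastema exceeded its own stump, by 0.20 in animal 368, 1.03 in animal 369 and 0.86 in animal 378. The unadjusted Hy3 signals were 350, 956 and 995 in blastemas and 626, 664 and 727 in stumps, lower in the blastema of animal 368. The log2 ratio difference of 0.70 ± 0.33 did not pass unpaired (adjusted p = 0.191) and passed with the replicate block (adjusted p = 0.0309). Chicken probe 11115 behaved alike, at 0.67 unpaired (adjusted p = 0.175) and an adjusted p of 0.0266 with the block. Both passed without animal 368, at 0.95 (adjusted p = 0.00287) for probe 11248 and 0.88 (adjusted p = 0.00538) for probe 11115. The direction rested on how the arrays were scaled: it was -0.06 for probe 11248 with median centring in place of loess and -0.29 with loess fitted to the spike-in controls, neither past the threshold.

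The other miRNA of the erythroid locus, miR-144, was not called on either array. All 5 LC Sciences reporters of miR-144 stayed between 3 and 26 in every sample, under the floor. The Exiqon probe with the human entry (29802) read log2 ratios of -0.83, 0.29 and -0.44 in blastemas and -0.30, 0.16 and -0.01 in stumps, and the groups overlapped. Its difference of -0.27 ± 0.25 did not pass (adjusted p = 0.545), and the other 4 probes ran between -0.33 and 0.02, none past the threshold. Animal 368 had the lowest blastema and the lowest stump for this probe, as it had for miR-451. The log2 ratio of miR-144 to the common pool, less that of miR-451 in the same sample, was -0.28, -0.60 and -1.06 in blastemas. In stumps it was 0.45, 0.29 and 0.23. Ratios to the pool do not rank the miRNAs within a sample. The stump Hy3 signals were 298, 276 and 273 for miR-144 and 626, 664 and 727 for miR-451. The double difference of -0.97 had the same sign in 3 of 3 animals. Its exact two-sided permutation p was 0.1, the smallest that 3 against 3 samples allow (0.15 adjusted over 6 pairs).

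Myeloid miR-223 was called higher in the blastema on both arrays. The Exiqon value is relative to probes of like intensity (loess). The LC Sciences value is relative to the median reporter after the company's normalization, whose method is not settled. On Exiqon, probe 11024 serves 15 vertebrate sequences and read log2 ratios of 0.82, 0.58 and 1.09 in blastemas against -0.75, -0.24 and -1.15 in stumps. The groups were apart, and the unadjusted Hy3 signals were also higher in every blastema, at 689, 829 and 1258 against 602, 610 and 413. The difference was 1.54 ± 0.22, a 2.91-fold higher ratio (adjusted p = 0.0010), the highest of the 23 member probes. It fell short of the threshold with median centring (0.74, adjusted p = 0.0830) and with loess on the spike-in controls (0.47, adjusted p = 0.302), with the sign kept.

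**Figure D3:**
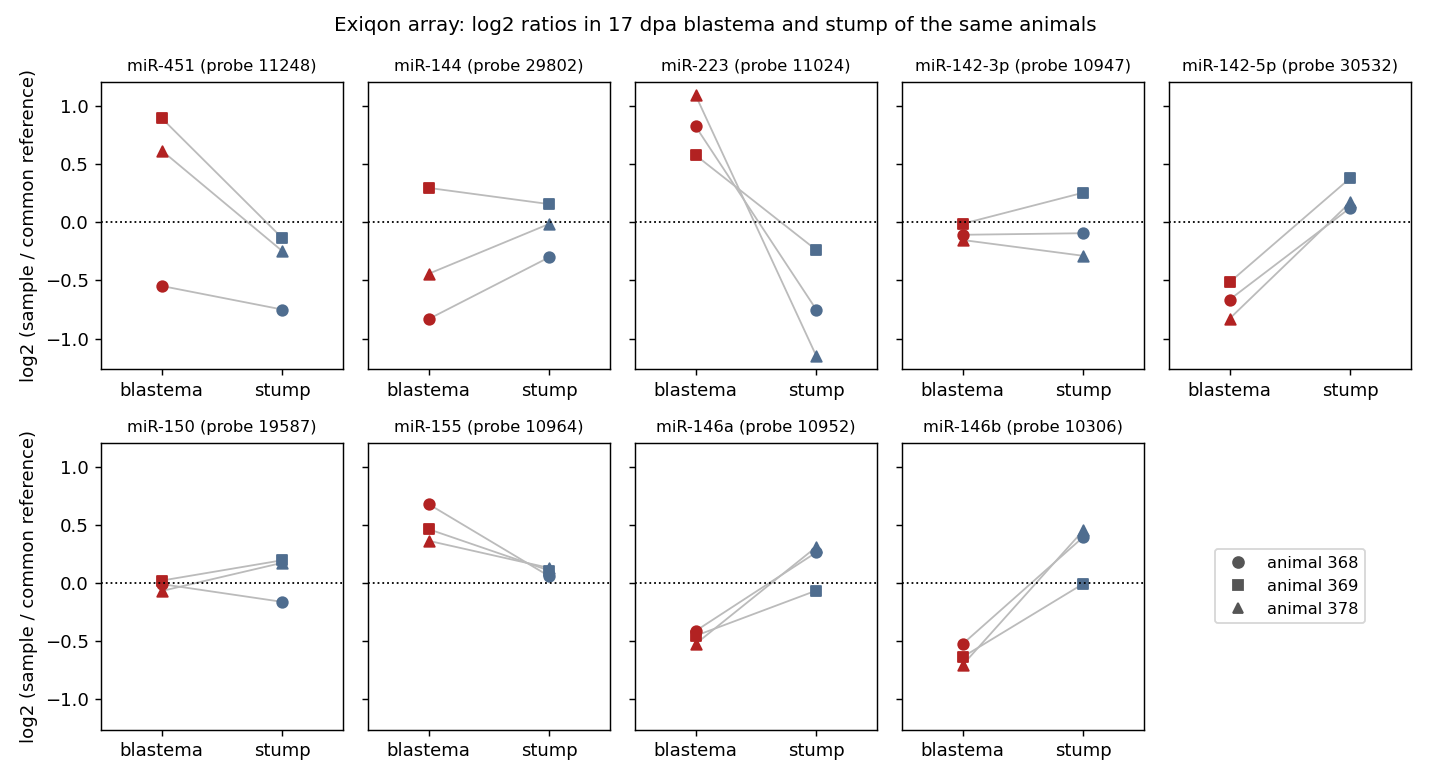
Exiqon log2 ratios of sample over common reference for 1 probe of each member, in blastema (red, left) and stump (blue, right), with lines joining the samples of an animal. For miR-223 every blastema lies above 0.5 and every stump below -0.2, for miR-142-5p the order is reversed, and for miR-451, miR-144, miR-142-3p and miR-150 the groups overlap.

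On LC Sciences all 5 miR-223 reporters were called higher, though the animals differed widely. The human reporter read 802, 226 and 504 in blastemas and 127, 179 and 34 in stumps, and its difference was 2.29 ± 0.71 (4.91-fold, adjusted p = 0.0326). Blastema exceeded stump by 6.31-fold in animal 368 and by 14.8-fold in animal 378, but by 1.26-fold in animal 369. The other 4 reporters lack the last base of the human target and share 1 target. They read 188 to 286, 148 to 200 and 509 to 740 in the blastemas of animals 368, 369 and 378, against 52 to 57, 137 to 190 and 61 to 67 in the stumps. In animal 369 the zebrafish reporter was at 172 in the blastema and 171 in the stump. Their differences were 1.66 to 1.97. With the replicate block the zebrafish, chicken and Xenopus reporters no longer passed (adjusted p = 0.0774, 0.0667 and 0.0680), and the human call was lost on leaving out any 1 animal (adjusted p = 0.0557 to 0.164).

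**Figure D4:**
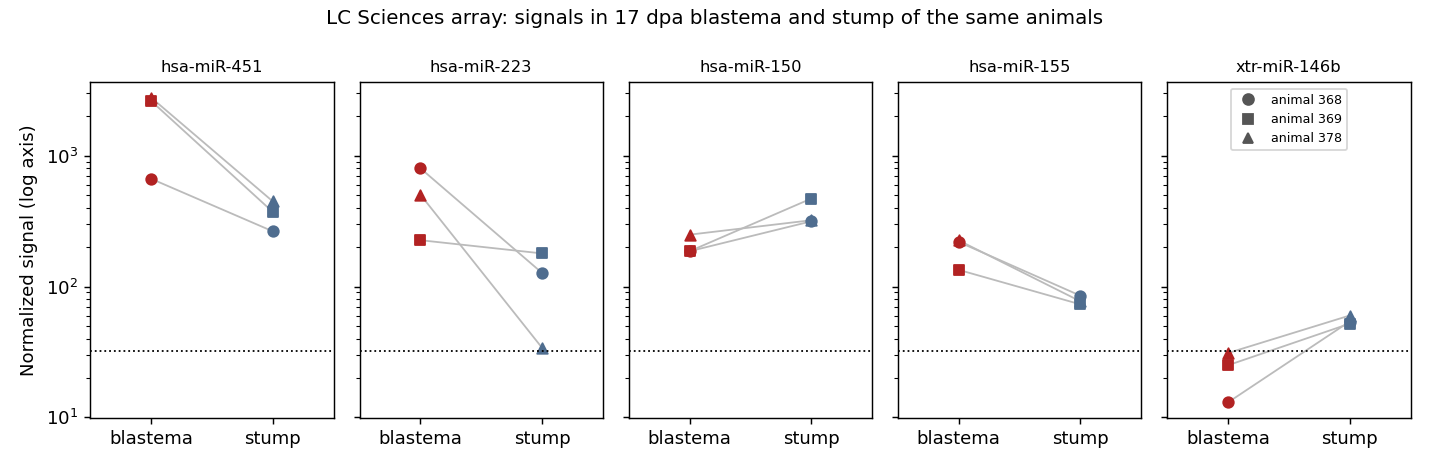
Normalized LC Sciences signals (log axis) of 5 reporters in blastema (red, left) and stump (blue, right), with lines joining the samples of an animal and the floor of 32 dotted. The human miR-223 reporter reads 226 in the blastema and 179 in the stump of animal 369, while animals 368 and 378 differ several-fold, and all 3 xtr-miR-146b blastema signals lie under 32.

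The 5p arm of miR-142, a hairpin expressed across the white cell lineages, was lower in the blastema on the Exiqon array. For miR-142-5p, probe 30532, with the human entry, read log2 ratios of -0.66, -0.52 and -0.83 in blastemas against 0.12, 0.38 and 0.17 in stumps. No blastema reached the lowest stump, and the difference was -0.89 ± 0.13 (1.86-fold lower, adjusted p = 0.00094). Probes 19015 (-0.70, adjusted p = 0.00381) and 28671 (-0.78, adjusted p = 0.00248) were also called lower. The last is designed to the chicken form, whose LC Sciences target starts 2 bases earlier than the human one and so has another seed, CCAUAAA. Without animal 378 probe 19015 missed the threshold (-0.68, adjusted p = 0.0503). The related probe for fugu and Tetraodon miR-142b (32831) was lower by 0.87 (adjusted p = 0.00128). The related zebrafish miR-142b-5p probe (17696), dim at Hy3 signals of 117 to 127, differed by 0.11 and did not pass (adjusted p = 0.563).

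For miR-142-3p, the other arm of the hairpin, the call depended on the probe and the scaling. Probe 10947 read -0.11, -0.01 and -0.15 in blastemas and -0.09, 0.25 and -0.29 in stumps. The difference was -0.05 ± 0.15 (adjusted p = 0.873), and the animals ran both ways. Its unadjusted Hy3 signals were 550, 737 and 781 in blastemas and 1356, 1076 and 956 in stumps, which did not overlap. With median centring in place of loess the difference was -0.86 (adjusted p = 0.00721), and with loess on the spike-in controls it was -0.93 (adjusted p = 0.0124), so that both arms were then called lower. Probe 28153, for the cow miR-142* (the cow name without a star stands with the 5p entries on probe 19015), was lower by 0.45 under loess on all probes (adjusted p = 0.0307). The difference between the arms was not tested. The double difference of miR-142-3p against miR-223 was -1.59, with values of -0.93, -0.59 and -1.24 in blastemas and 0.66, 0.49 and 0.86 in stumps (exact permutation p = 0.1, 0.15 adjusted over 6 pairs). None of the 8 LC Sciences reporters of miR-142-3p and miR-142-5p exceeded 28 in any sample.

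**Figure D5:**
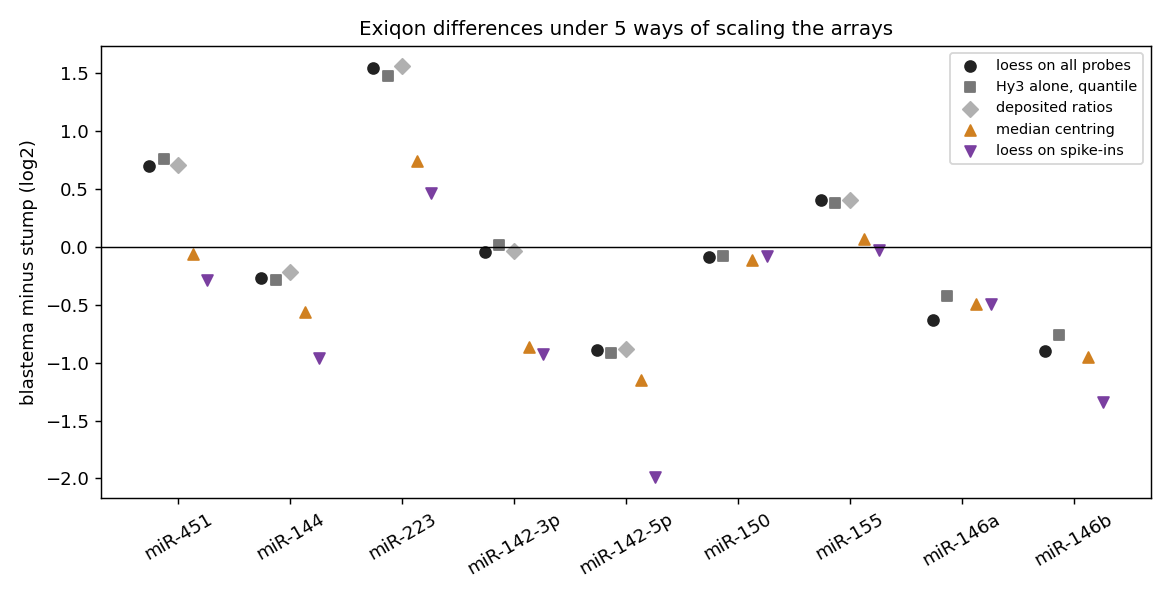
Blastema minus stump difference (log2) of 1 Exiqon probe per member under 5 ways of scaling the arrays, with no error bars. Loess on all probes, quantile scaling of Hy3 and, where present, the deposited ratios lie close together except for miR-146a (-0.63 with loess, -0.43 with quantile scaling), while median centring and loess on the spike-in controls lie below loess on all probes for miR-451, miR-144, miR-223, miR-142-3p, miR-142-5p, miR-155 and miR-146b; the deposited ratios held no tested value for miR-150, miR-146a and miR-146b.

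Lymphoid miR-150 was lower in the blastema on LC Sciences. The human reporter read 186, 186 and 249 in blastemas and 315, 470 and 321 in stumps, with every blastema under every stump. The difference was -0.82 ± 0.26 (1.77-fold lower, adjusted p = 0.0341). C_hsa-miR-150, of the identical target, read 246, 218 and 278 in blastemas and 349, 545 and 383 in stumps (-0.76, adjusted p = 0.0402). The Xenopus reporter (-0.82, adjusted p = 0.0595) and the cow reporter C_bta-miR-150 (-0.68, adjusted p = 0.0528) did not pass. The zebrafish reporter had all 3 blastemas under the floor, so its fitted difference is only a bound, at least 1.57-fold lower (adjusted p = 0.1002), and it entered the test through its stump signals alone. Both called reporters lost the threshold with the replicate block (adjusted p = 0.0629 for hsa-miR-150 and 0.0758 for C_hsa-miR-150), with the dye as a term (0.0595 and 0.0778) and on leaving out any 1 animal (0.0549 to 0.219 and 0.0746 to 0.226). Without animal 369 the human reporter's difference was -0.56.

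On Exiqon miR-150 lay near the negative controls. Probe 19587, with the human entry, had a Hy3 signal of 120, 124 and 131 in blastemas and 129, 134 and 135 in stumps, where the brightest negative control of an array lay between 116 and 128. Its log2 ratios were -0.01, 0.02 and -0.07 in blastemas and -0.16, 0.20 and 0.17 in stumps, and the difference of -0.09 ± 0.13 did not pass (adjusted p = 0.718). The zebrafish probe (17723) was not above the negative controls on any array.

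Of the activation miRNAs, miR-155 was called higher in the blastema on 1 probe of each array. On LC Sciences this was relative to the median reporter after the company's normalization, whose method is not settled. On Exiqon it was relative to probes of like intensity (loess). The human LC Sciences reporter read 219, 134 and 225 in blastemas and 85, 73 and 77 in stumps, with no overlap and a narrow spread among stumps. The difference was 1.26 ± 0.26 (2.40-fold, adjusted p = 0.00776). The zebrafish, chicken and Xenopus reporters share a target 1 base shorter and read 72 to 82, 73 to 107 and 150 to 183 in the blastemas of animals 368, 369 and 378 and 58 to 68, 29 to 94 and 48 to 56 in the stumps. Their differences of 0.77 to 0.95 did not pass (adjusted p = 0.0752 to 0.124). The human call missed the threshold without animal 368 (adjusted p = 0.0510) or animal 378 (adjusted p = 0.0638).

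On Exiqon, miR-155 probe 10964, serving the human and 5 other sequences, read log2 ratios of 0.68, 0.46 and 0.36 in blastemas against 0.06, 0.11 and 0.13 in stumps. The unadjusted Hy3 signals overlapped, at 212, 233 and 264 in blastemas and 239, 197 and 206 in stumps, lower in the blastema of animal 368. The log2 ratio difference was 0.40 ± 0.12 (1.32-fold, adjusted p = 0.0384), and each blastema exceeded its stump in this ratio. It did not pass with the replicate block (adjusted p = 0.0781) or without any 1 animal (adjusted p = 0.0930 to 0.189), and it was 0.06 with median centring and -0.03 with loess on the spike-in controls. The mouse probes 11203 and 27558 differed by 0.33 (adjusted p = 0.0765) and 0.09 (adjusted p = 0.652).

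The miR-146 family was lower in the blastema where it was called, but its signals lay near the limit of reading. On Exiqon, miR-146b probe 10306 had log2 ratios of -0.52, -0.64 and -0.70 in blastemas and 0.39, -0.01 and 0.45 in stumps, and a difference of -0.90 ± 0.14 (1.87-fold lower, adjusted p = 0.00163). Its Hy3 signals were 128, 134 and 152 in blastemas and 257, 170 and 219 in stumps. For miR-146a, probe 10952 read a Hy3 signal of 110, 112 and 119 in blastemas, below the brightest negative control on each of those arrays, and 144, 129 and 147 in stumps, above it on all 3. Only a bound can be given, at least 1.44-fold lower in the blastema. The bound sets the stump mean against the blastema mean and assumes no dye bias. Each blastema was taken at the larger of its own signal and the dimmest signal above the negative controls on its array. The limma fit of the log2 ratios gave -0.63 (adjusted p = 0.00654), which does not test the bound. This fitted difference did not pass with loess on the spike-in controls (adjusted p = 0.143) or without animal 378 (adjusted p = 0.0988). The remaining miR-146a and miR-146b probes (9466, 17409 and 17716) were not above the negative controls on any array and did not pass. The related Xenopus miR-146 probe (16933) exceeded the brightest negative control on every array. It read a Hy3 signal of 136, 133 and 141 in blastemas and 155, 147 and 152 in stumps. Its difference of -0.24 did not pass (adjusted p = 0.174).

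On LC Sciences the Xenopus miR-146b reporter alone of the 6 miR-146a and miR-146b reporters could be tested. It read 13, 25 and 31 in blastemas and 54, 52 and 60 in stumps, with no overlap, so the blastema was at least 1.73-fold lower against the floor of 32. It entered the test only because its stumps reached the floor, so its fitted adjusted p of 0.0142 carries no weight of its own. The hsa-miR-146a reporter reached 34 in the blastema of animal 368 and lay between 8 and 17 in the other 5 samples. Chicken and zebrafish miR-146b, which differ from the Xenopus target within its last 6 bases (for gga-miR-146b, by G18A, A20G and U22G), stayed between 3 and 20.

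Lineages were then set against each other inside each sample. This cancels a factor common to the whole sample, but not a scaling that acts unequally on the probes. The scaling of the Exiqon arrays acts by intensity. The company's normalization of LC Sciences signals, whose method is not settled, also did not move all reporters alike. In animal 368, relative to the median kept reporter, hsa-miR-155 stood at 1.98 before it and 1.26 after it. For hsa-miR-451 these values were 1.03 and 1.23. On LC Sciences, hsa-miR-451 minus hsa-miR-150 was 1.84, 3.82 and 3.48 in blastemas and -0.25, -0.34 and 0.48 in stumps, a double difference of 3.09. For hsa-miR-223 minus hsa-miR-150 the values were 2.11, 0.28 and 1.02 in blastemas and -1.31, -1.39 and -3.24 in stumps, a double difference of 3.12. For hsa-miR-155 minus hsa-miR-150 they were 0.24, -0.47 and -0.15 in blastemas and -1.89, -2.69 and -2.06 in stumps, a double difference of 2.08. In these 3 pairs the groups did not overlap, and the exact two-sided permutation p was 0.1, the smallest possible (0.133 adjusted over 4 pairs). The permutation took the 6 samples as unpaired, though they come from the same 3 animals. Each double difference combines the differences already given for its members, so it is not separate support. The erythroid and myeloid members ran both ways among animals: hsa-miR-223 minus hsa-miR-451 differed by 0.03 (exact permutation p = 1), at 1.32 within animal 368, -2.48 within animal 369 and 1.25 within animal 378. On Exiqon the double differences were 1.63 for miR-223 and 0.49 for miR-155 against miR-150 (both p = 0.1, adjusted 0.15), and 0.79 for miR-451 against miR-150 and 0.84 for miR-223 against miR-451 (both p = 0.3), all by the exact permutation test, with overlapping groups in the last pair of comparisons. The Exiqon values depended on the scaling: miR-451 minus miR-150 was 0.05 with median centring and -0.21 with loess on the spike-in controls, miR-155 minus miR-150 was 0.18 and 0.05, and miR-223 minus miR-150 was 0.85 and 0.54. For miR-144 minus miR-451 it was -0.50 and -0.67, and -0.63 as the mean over all probes of each name. For miR-223 minus miR-451 (0.80 and 0.75) and miR-142-3p minus miR-223 (-1.60 and -1.39) the scaling mattered less. The pairs under these scalings were added after the data were seen.

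Not all members could be read on LC Sciences, and their targets differed in base content. The human targets of miR-144 (30% G or C), miR-142-5p (33.3%) and miR-142-3p (34.8%) were the poorest in G and C among the human targets, and their LC Sciences reporters stayed under the floor. Other members did not follow this order: the chicken miR-451 reporters, also at 34.8%, read up to 776, while gga-miR-144 and mdo-miR-144, at 36.4%, stayed under the floor. Over the whole array 15% of 193 reporters with under 35% G or C were kept, against 30.3% of 571 with 35 to 45%, 32.6% of 771 with 45 to 55% and 10.7% of 439 above that. The human reporter of miR-451, at 36.4%, passed the filter, and that of miR-146a, at 40.9%, did not. The part of base content in these readings was not tested.

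A list of other names known from blood cells was called in part. On Exiqon 3 of 15 tested probes were called higher, where 9.16% of all probes were, and none lower, with a median of 0.07. These were hsa-miR-486-3p (28666, made in red cells and muscle) by 0.67 (adjusted p = 0.00226) and hsa-miR-503 (11135, listed as myeloid) by 0.59 (adjusted p = 0.0239). The last was hsa-miR-147 (10954, listed under activation), by 0.59 (adjusted p = 0.0107). Other probes for the same or related names did not pass. The macaque miR-486-3p probe (17954) differed by 0.22 (adjusted p = 0.269) and the rodent and dog miR-503 probe (14288) by 0.56 (adjusted p = 0.0897). The probe of human miR-147b (17411), which also holds mouse miR-147, differed by 0.07 (adjusted p = 0.792). The other arm, hsa-miR-486-5p (32946), differed by -0.06 (adjusted p = 0.815). The other name listed as myeloid, miR-424 (11107), differed by 0.01 (adjusted p = 0.959). On LC Sciences all 7 tested reporters were called higher, where 25.8% of all reporters were, with a median of 1.83. Of these, 2 were miR-363, at 0.78 (dre) and 0.72 (hsa), and 5 were miR-181a, a lymphoid miRNA that other tissues also make, at 1.83 to 1.94. The 7 calls are thus species versions of miR-363 and miR-181a alone and are not independent of each other. Exiqon did not call miR-181a (0.18, adjusted p = 0.337) or miR-363 (-0.05, adjusted p = 0.833). Of 15 LC Sciences reporters for star strands and related family names, 1 reached 32 in any sample, hsa-miR-150*, with 22, 28 and 43 in blastemas and 17, 5 and 8 in stumps.

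The patterns most like those of miR-451, miR-223, miR-142-3p, miR-155 and miR-150 over the 6 samples were sought as a description, by Pearson's r of log2 values with no test. On LC Sciences (500 reporters) they were miR-663, miR-1826 and miR-23b for hsa-miR-451 (r = 0.96, 0.96 and 0.94) and miR-25, miR-181c and miR-181b for hsa-miR-223 (0.97, 0.94 and 0.94). For hsa-miR-155 they were miR-181b, miR-23a and miR-145* (0.98, 0.98 and 0.97), and for hsa-miR-150 let-7f, let-7a and miR-16c (0.94, 0.94 and 0.93). On Exiqon (2002 probes) the nearest vertebrate names were miR-378* for miR-451 (0.96), miR-581 and miR-198 for miR-223 (1.00 and 1.00), miR-520d-3p for miR-142-3p (0.97), miR-193b and miR-702 for miR-155 (0.99 and 0.98) and miR-676* for miR-150 (0.99). The remaining 8 of the 15 nearest Exiqon probes carried worm, flatworm, plant or viral miRNA names or a small nuclear RNA. The small nuclear RNA was U6, among the nearest to miR-223 (r = 0.99). With 6 points that share their libraries and fall into 2 tissues, these values are a description only.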

How the data were processed

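Total RNA (mirVana) of 3 blastemas and 3 stumps was profiled on both platforms. The deposited Exiqon scanner files hold spot intensity in each channel, not normalized. The deposited Exiqon log median ratios are on a log2 scale, after the authors' normexp and loess. The deposited LC Sciences values are signals normalized by the company; the exact method is not settled in the sources used here. The spots of the LC Sciences array of animal 368 (3968), before normalization, were used as a check, and their target sequences were printed. Deposited p-values and fold values of the authors' own comparison were not used.

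Exiqon log2 ratios were computed with normexp (offset 10) and loess in limma 3.58.1 (R 4.3.3). Poor and manually flagged spots were dropped and the remaining spots, of 4 printed, averaged. A probe was tested where at least 50% of its spots lay over the local background by 2 SD on all 3 arrays of a group. LC Sciences signals under 32 were set to 32, and a reporter was tested where it reached 32 in all 3 samples of a group. Computed ratios differed from the deposited ones by a median of 0.0095 over 2567 values. Groups were compared with lmFit and eBayes, Benjamini-Hochberg adjusted over all tested probes. Within-sample pairs were compared with the exact permutation test, which took the samples as unpaired. The fits were tested on simulated data. The number of arrays limits the precision.

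Replicate numbers mark animals, per the sample descriptions, so they pair the samples; deviations of same-animal samples correlated by -0.03 to -0.01 (Exiqon) and -0.05 to 0.17 (LC Sciences). The members, lists and named probes (all member probes, related and other blood names, and 3 nearest patterns of 5 members) were chosen with earlier results of these data known. Alternatives covered background, normalization, filters, floor, dye, pairing, the methods' t-test and leaving out animals.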

Additional observations from a re-analysis of the deposited data

How the results depend on the processing

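Counts are of member probes unless said otherwise, and leaving out an animal removes both its samples. On Exiqon, 2 were called higher and 5 lower, of 409 probes called among 2008 tested (184 higher, 225 lower). Higher calls numbered 0 with median centring, with loess on the spike-in controls and with the methods' t-test at their threshold, and 1 with that test after Benjamini-Hochberg; lower calls numbered 3 with the deposited ratios, which hold fewer probes, and 0 with the methods' t-test. All calls numbered 254 with loess on the spike-in controls, where miR-155 probe 10964 turned to -0.025, and 87 with the methods' t-test. The higher share of all calls was 45%, but 17.3% with median centring, 11% with loess on the spike-in controls and 58.6% with the methods' t-test. Leaving out an animal gave 1 to 3 higher, 3 to 5 lower and 188 to 370 calls in all. Among all 2004 to 2012 probes tested then, 82 to 172 were called higher and 106 to 198 lower. The replicate block gave 3 higher, 5 lower and 336 in all (149 higher, 187 lower).

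On LC Sciences, 11 were called higher and 3 lower, of 241 reporters called among 500 tested (129 higher, 112 lower). A floor of 64 lies above every xtr-miR-146b signal and so sets its difference to 0. Higher calls numbered 7 with a floor of 64, 0 with no filter on dim reporters and 1 with the methods' t-test, unadjusted or adjusted. Lower calls numbered 5 with quantile normalization, and 1 with no filter, the dye as a term, the replicate block and the methods' t-test, unadjusted or adjusted. All calls numbered 79 of 1974 with no filter (43 higher, 36 lower). With the unadjusted t-test they numbered 143 of 500 (71 higher, 72 lower). With a floor of 64 they numbered 210 of 500 (108 higher, 102 lower). Lower calls among all 500 numbered 117 with quantile normalization, 129 with the dye as a term and 108 with the replicate block. Leaving out an animal gave 0 to 6 higher, 0 to 1 lower and 96 to 192 calls in all, with the fewest higher member calls without animal 378. Among all 514 to 536 reporters tested then, 56 to 108 were called higher and 40 to 89 lower. The LC Sciences spike-in controls read 7.5-fold higher in blastemas, so scaling to them moved the median of all reporters to -2.90 and gave 0 higher and 11 lower members and 428 calls (2 higher, 426 lower). Under it miR-451 was at -0.64 (hsa), -0.82 (C_hsa), -0.76 (dre), -0.77 (xtr), -1.31 (gga) and -1.06 (C_gga), miR-223 at -0.61 (hsa), -0.94 (mdo), -0.99 (gga), -1.04 (dre) and -1.25 (xtr), and miR-155 at -1.64 (hsa), -1.96 (dre), -2.11 (xtr) and -2.14 (gga), all above that median, while miR-150 lay below it. The cause was not tested.

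Of the within-sample pairs, LC Sciences miR-223 minus miR-451 (0.03) turned to -0.072 over all reporters of a name and ran from -0.62 to 1.29 on leaving out an animal. Exiqon miR-451 minus miR-150 (0.79) turned to -0.211 with loess on the spike-in controls. Over all probes of a name it was 0.48, while miR-155 minus miR-150 was 0.32 (Exiqon; 0.49 with the human probes) and 1.69 (LC Sciences), and miR-144 minus miR-451 was -0.63 (-0.97 with the human probes). On leaving out an animal the other pairs kept their sign: on Exiqon 0.58 to 1.16 (miR-451 minus miR-150), 1.20 to 1.95 (miR-223 minus miR-150), 0.47 to 0.50 (miR-155 minus miR-150), 0.58 to 1.37 (miR-223 minus miR-451), -1.09 to -0.81 (miR-144 minus miR-451) and -1.84 to -1.33 (miR-142-3p minus miR-223), and on LC Sciences 2.55 to 3.58, 2.55 to 3.84 and 2.02 to 2.17 for the first 3. Exiqon probes near the negative controls and LC Sciences reporters near 32 give the least precise values.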

Other observations

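The LC Sciences array of animal 368 allowed a look at spots before normalization. Less the median spot of each channel, and relative to the median kept reporter, the blastema minus stump value of hsa-miR-451 was 1.03 on the log2 scale, against 1.23 after normalization. It was 2.79 against 2.55 for hsa-miR-223, -1.17 against -0.87 for hsa-miR-150 and 1.98 against 1.26 for hsa-miR-155. The shorter miR-155 target moved most: gga-miR-155 read 1.74 before normalization and 0.34 after it, and dre-miR-155 1.67 and 0.13. These are values of 1 animal, with no test.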
